A study of Mus musculus with 4 samples.

Results

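The genes described here are 4 members of the mouse Ly6 family, Ly6c2, Ly6a, Ly6e and Ly6i, out of 32285 genes counted, chosen by their symbols. They were followed in CD11c+ MHC-II+ cells sorted from B16-F10 melanomas grown under the skin of C57BL/6 mice, 1 10x 3′ single-cell library for each of 4 adenoviruses injected into the tumor on day 12. The viruses were Ad-MEM40 (treatment label ISF35, as background a virus for a membrane-bound CD40 ligand), Ad-mIFNB (mouse interferon beta), Ad-COMBO (ISF35 together with mIFNB) and Ad-Null, the control virus, so all 4 groups carried tumor and virus. Each library pooled the cells of 3 tumors and no treatment has a replicate, so no comparison below carries a test, and intervals cover counting error only, not the spread between tumors.

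Ly6 proteins are small molecules held on the outer cell surface by a lipid anchor, and in the mouse several of their genes lie in a row on one chromosome. Ly6c2 encodes the Ly6C antigen, which marks inflammatory monocytes and is also carried by plasmacytoid dendritic cells (pDC) and by some T cells. Ly6a encodes Sca-1, best known as a surface marker of blood stem cells, and Ly6e encodes an antigen that bears on the entry of several viruses. Ly6a, Ly6e and Ly6c genes are induced by interferons in many cell types, and Ly6i is a close relative of Ly6a whose role is less well studied.

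All 4 genes are protein-coding and lie on chromosome 15 (GRCm38, GENCODE M21 annotation). Ly6e (ENSMUSG00000022587) is on the plus strand at chr15:74955051-74959905. Ly6i (ENSMUSG00000022586) at chr15:74979534-74983430, Ly6a (ENSMUSG00000075602) at chr15:74994877-74998031 and Ly6c2 (ENSMUSG00000022584) at chr15:75108158-75111970 are on the minus strand. The coding sequences of Ly6a and Ly6i were identical at 86.4% of aligned bases, those of Ly6c2 and Ly6a at 81.7%, and Ly6e matched the other members at 51.3% to 53.8%. Ly6c1, a neighbouring gene at chr15:75044018-75048830, matched Ly6c2 at 387 of 396 coding bases (97.7%) and at 375 of 389 bases after the coding part, so counts of Ly6c2 are uncertain to the extent that counting split reads between the copies. The last 90 coding bases, GENCODE M21, show how little separates them, with the 2 positions that differ in capitals.
Ly6c2: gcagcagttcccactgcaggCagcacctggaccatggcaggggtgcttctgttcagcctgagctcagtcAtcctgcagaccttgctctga
Ly6c1: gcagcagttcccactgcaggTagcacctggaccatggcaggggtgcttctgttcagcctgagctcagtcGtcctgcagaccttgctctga
Ly6c1 was counted at 2.49 CPM (counts per 1000000 UMIs of the library) in Ad-MEM40, 0.701 in Ad-mIFNB, 0.615 in Ad-COMBO and 1.38 in Ad-Null, which is low beside Ly6c2 in each library.

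For the promoter, RefSeq (GRCm38.p6) gave 2 overlapping windows for Ly6c2 and no entry was used for Ly6a, Ly6e and Ly6i. The window at chr15:75111922-75112221, minus strand, is shown because Ly6c2 differed most between the libraries, with matches to GAGGAAG, a core bound by the myeloid factor PU.1, in capitals.
Ly6c2: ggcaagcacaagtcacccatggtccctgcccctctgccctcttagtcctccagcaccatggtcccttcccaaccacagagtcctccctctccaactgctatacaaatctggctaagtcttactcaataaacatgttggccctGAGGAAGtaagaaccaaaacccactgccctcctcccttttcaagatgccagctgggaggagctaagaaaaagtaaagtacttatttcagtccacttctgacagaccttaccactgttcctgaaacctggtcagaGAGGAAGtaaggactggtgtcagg
Both strands were searched, and the matches do not overlap. GAGGAAG matched 2 times in this window and is held by 13.6% of 32851 promoter windows. GAAANNGAAA, the core of the interferon-stimulated response element, is held by 3.44% of windows and TTCNNNGAA, the gamma-activated site core, by 8.30%, and these letters were in neither Ly6c2 window.

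Barcodes were kept with no fewer than 500 genes and no more than 10% mitochondrial UMIs, which left 15656 cells of Ad-MEM40, 1810 of Ad-mIFNB, 671 of Ad-COMBO and 8745 of Ad-Null. The median cell held 9483, 13615.5 and 11434 UMIs in Ad-MEM40, Ad-mIFNB and Ad-COMBO, and 15277 UMIs in Ad-Null. H2-Ab1, a class II gene of the sort, had a UMI in 91.4% to 99.9% of cells and Itgax, the CD11c gene, in 40.9% to 60.7%, and Ad-COMBO was the smallest library with the lowest H2-Ab1 share. Libraries shared between 0 and 63 cell barcodes. Levels are UMIs summed over cells as CPM, 1 UMI per captured molecule and not scaled by transcript length, so levels of different genes are compared only loosely.

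Cells were put into a class when they held UMIs of a set number of its markers, none of them a Ly6 gene: conventional dendritic cells of type 1 (cDC1, 6 of 8 markers) and type 2 (cDC2, 4 of 6), mature DC (5 of 8), pDC (5 of 8), macrophages (6 of 8), monocytes (4 of 8) and melanoma cells (5 of 8). The leading genes of each class included its own gate markers, which the gate itself selects. Examples are Siglech and Klk1 for the pDC gate, C1qa and Ms4a7 for macrophages and Vcan for monocytes. Leading genes outside the marker lists included Ly6d and Igkc for pDC, Apoe for macrophages and Lyz1 and Retnla for monocytes. No gate was passed by 44.0% of cells in Ad-MEM40, 52.4% in Ad-mIFNB, 44.9% in Ad-COMBO and 37.2% in Ad-Null, and these cells were shallower, with medians of 6652, 9365, 5056 and 9222 UMIs in the same order. Cells that passed several gates (12.9%, 6.91%, 5.37% and 15.2%, with medians of 20816 to 37129 UMIs) were kept out of the classes. Classes were compared where both libraries held at least 50 cells, which left no class ratio for pDC or monocytes in Ad-mIFNB and Ad-COMBO, nor for cDC2 in Ad-COMBO.

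With the control virus, Ly6c2 was a pDC transcript first of all. In Ad-Null it stood at 1786 CPM (95% Poisson interval 1734 to 1840) in pDC-gated cells, 117 in cells with no gate and 97.6 in monocyte-gated cells, then 69.8 in cDC1, 59.3 in cDC2 and 45.1 in both mature DC and macrophages, the only neighbours in this order whose intervals overlapped. Melanoma-gated cells had 3.90 CPM of Ly6c2, 61.7 of Ly6a, 65.9 of Ly6e and 3.19 of Ly6i in Ad-MEM40, and 2.25 CPM of Ly6c2, 29.8 of Ly6a, 45.0 of Ly6e and 0.173 of Ly6i (1 UMI) in Ad-Null. The few cells of a fibroblast gate held the highest Ly6a of any class in both libraries, 3629.7 CPM over 13 cells in Ad-MEM40 and 4299 CPM over 3 cells in Ad-Null, with Ly6e at 863 CPM in Ad-MEM40 and 1011 CPM in Ad-Null. In Ad-Null 1 of these cells held 331 of the 387 Ly6a UMIs. Without it the level was 1204 CPM, below the 1577 CPM of pDC. In Ad-MEM40 the level without the top cell was 2663 CPM.

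Ly6a and Ly6e were spread more evenly over the myeloid classes. Ly6a was at 1577 CPM in pDC of Ad-Null, 972 in cells with no gate, 919.7 in cDC2, 581 in monocytes, 525 in macrophages, 473 in mature DC and 313 in cDC1, with no overlap between neighbouring intervals. Ly6e ran from 2005 CPM in pDC through 1133 in cDC2, 1130.5 with no gate, 1007 in macrophages, 897 in monocytes and 882 in cDC1 to 468 in mature DC. The Ly6e intervals of cDC2 and ungated cells overlapped, as did those of monocytes and cDC1. Ly6i was the one member whose summed level was highest in mature DC, at 31.9 CPM (26.8 to 37.7), followed by 26.2 with no gate and 20.9 in monocytes. It was at 16.7 CPM in cDC2, 10.5 in pDC, 6.43 in macrophages and 3.15 in cDC1. Each of these Ly6i intervals overlapped the next in the order except that of cDC1, which lay below the rest.

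**Figure D1:**
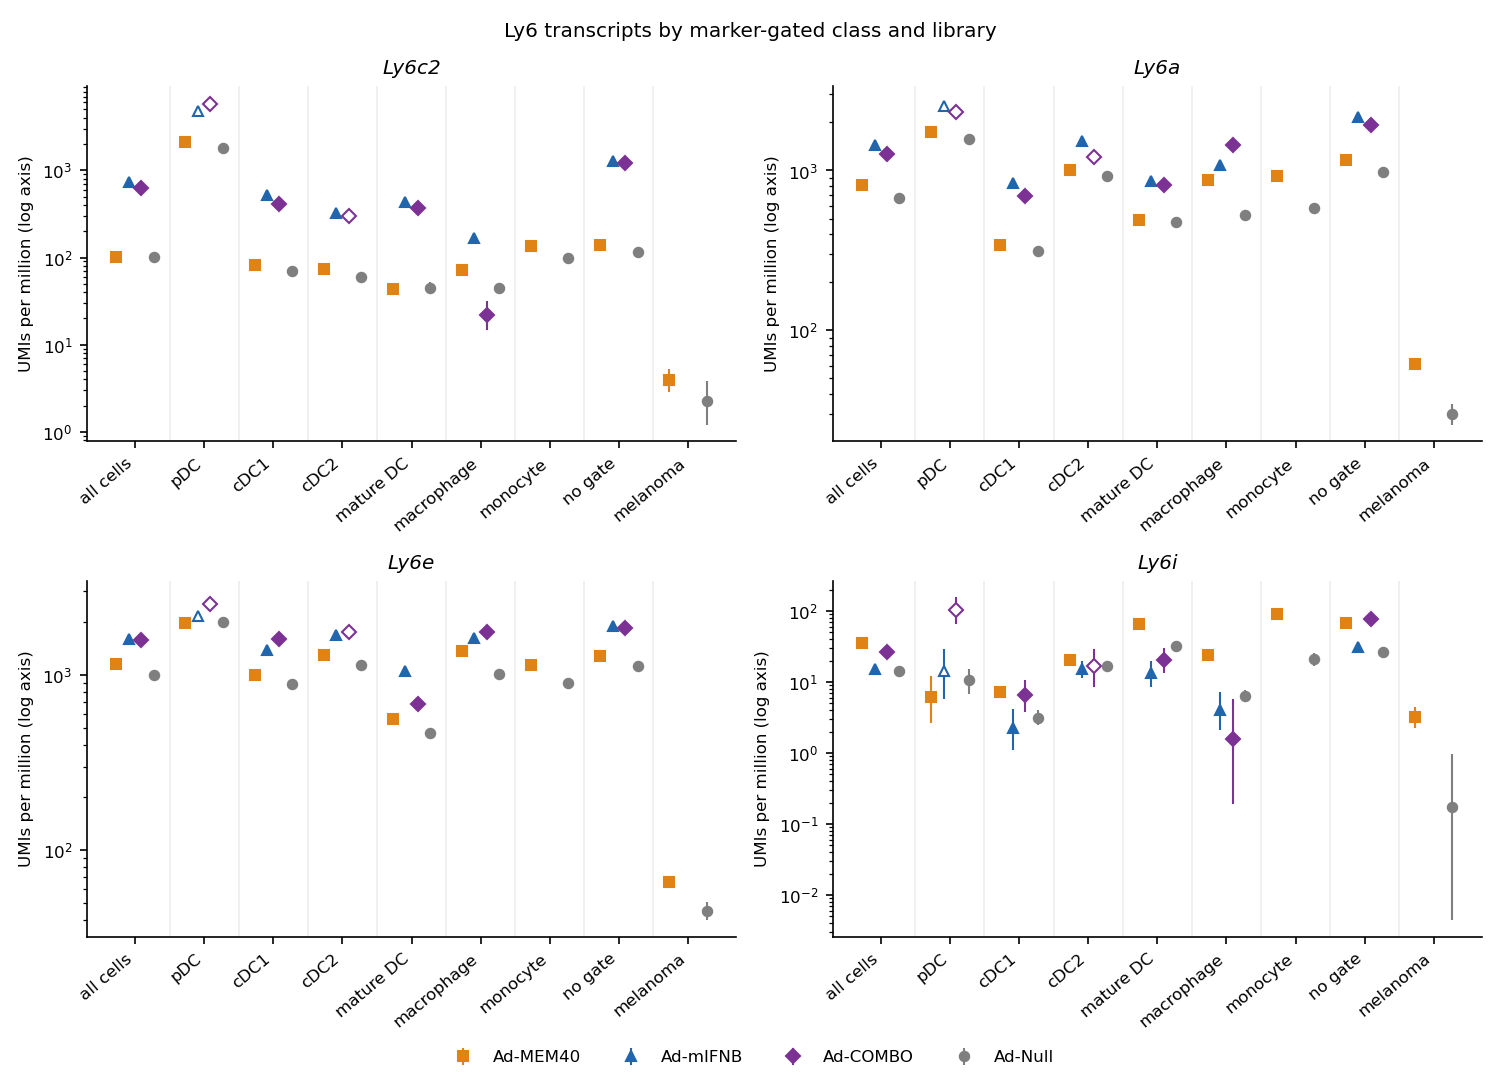
Level of each Ly6 gene (CPM, log axis) in all cells and in each marker-gated class, 1 symbol per library, with 95% Poisson bars where they are wider than the symbol. Open symbols are classes with under 50 cells, and classes with under 20 cells or no UMI of the gene are not drawn. Ad-mIFNB and Ad-COMBO lie far above Ad-Null for Ly6c2 in most classes, and in macrophages Ad-COMBO lies below it at 22.0 CPM.

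The interferon beta virus came with a large difference in Ly6c2 and smaller ones in Ly6a and Ly6e. Over all cells Ly6c2 was at 731 CPM in Ad-mIFNB (721 to 741) and at 100.3 CPM in Ad-Null (98.8 to 102), a ratio of 7.28 (7.13 to 7.43) and rank 7 of 15627 genes measured. Ly6a was at 1449 CPM in Ad-mIFNB and 670.5 CPM in Ad-Null, 2.16-fold higher (2.14 to 2.19). Ly6e was at 1602 CPM in Ad-mIFNB and 994 CPM in Ad-Null, 1.61-fold higher (1.59 to 1.63). Ly6i was at 15.1 CPM in Ad-mIFNB and 14.1 CPM in Ad-Null, a ratio of 1.07 (0.964 to 1.19). A gene is called higher here at 1.5-fold or more after 5 CPM was added to both sides, and 3 of the 4 members were called higher in Ad-mIFNB, where 2.65% of all genes were.

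The rise of Ly6c2 in Ad-mIFNB was found in each class that could be compared. It was at 526 CPM in cDC1 of Ad-mIFNB and 69.8 CPM in those of Ad-Null, 2.83 higher on the log2(CPM + 5) scale used for all class ratios. In cDC2 it was at 321 CPM in Ad-mIFNB and 59.3 CPM in Ad-Null (2.34 on that log2 scale). In mature DC it was at 431 CPM in Ad-mIFNB and 45.1 CPM in Ad-Null (3.12), rank 3 of 9268 genes measured. Macrophages had the smallest of these differences and ungated cells the largest. Macrophages held 166 CPM of Ly6c2 in Ad-mIFNB and 45.1 CPM in Ad-Null (1.77). Cells with no gate held 1264 CPM in Ad-mIFNB and 117 CPM in Ad-Null (3.38). In pDC the level was 4851 CPM in Ad-mIFNB, but over 49 cells, and 1786 CPM over 249 cells in Ad-Null, so the pDC carried the highest level in both libraries.

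Ly6a and Ly6e moved less and more evenly. Ly6a was called higher in Ad-mIFNB in cDC1 (830.5 CPM, against 313 in Ad-Null), macrophages (1077 against 525), ungated cells (2146 against 972), mature DC (855 against 473) and cDC2 (1522 against 919.7), by 0.72 to 1.39 on the log2 scale. Ly6e was called higher in mature DC (1057 CPM in Ad-mIFNB, 468 in Ad-Null, log2 1.17), where its level in Ad-Null was lowest. In ungated cells (log2 0.75), macrophages (0.69) and cDC1 (0.66) Ly6e lay nearer the threshold, and the cDC1 call was lost, at 0.57, when the gate asked for 1 more marker. In cDC2 Ly6e was at 1694 CPM in Ad-mIFNB and 1133 CPM in Ad-Null, a log2 difference of 0.58 that missed the threshold.

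Ly6i did not follow the other members. In mature DC it was at 13.3 CPM in Ad-mIFNB and 31.9 CPM in Ad-Null, lower by more than 1.5-fold (log2 -1.02, or -0.36 with cells thinned to equal depth, which ends the call). In cells of several gates Ly6i was at 4.89 CPM in Ad-mIFNB (23 UMIs) and 12.3 CPM in Ad-Null, a ratio of 0.396 (0.249 to 0.601). The log2 difference there was -0.81, or -2.20 with thinned cells, which left 0 Ly6i-positive cells in Ad-mIFNB. Set against all genes, 3 of 4 members were higher in cDC1 of Ad-mIFNB (3.4% of all genes), 2 of 4 in cDC2 (2.84%), 3 of 4 in mature DC (6.65%) with 1 of 4 lower (3.92%), 3 of 4 in macrophages (3.99%) and 3 of 4 with no gate (4.17%).

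**Figure D2:**
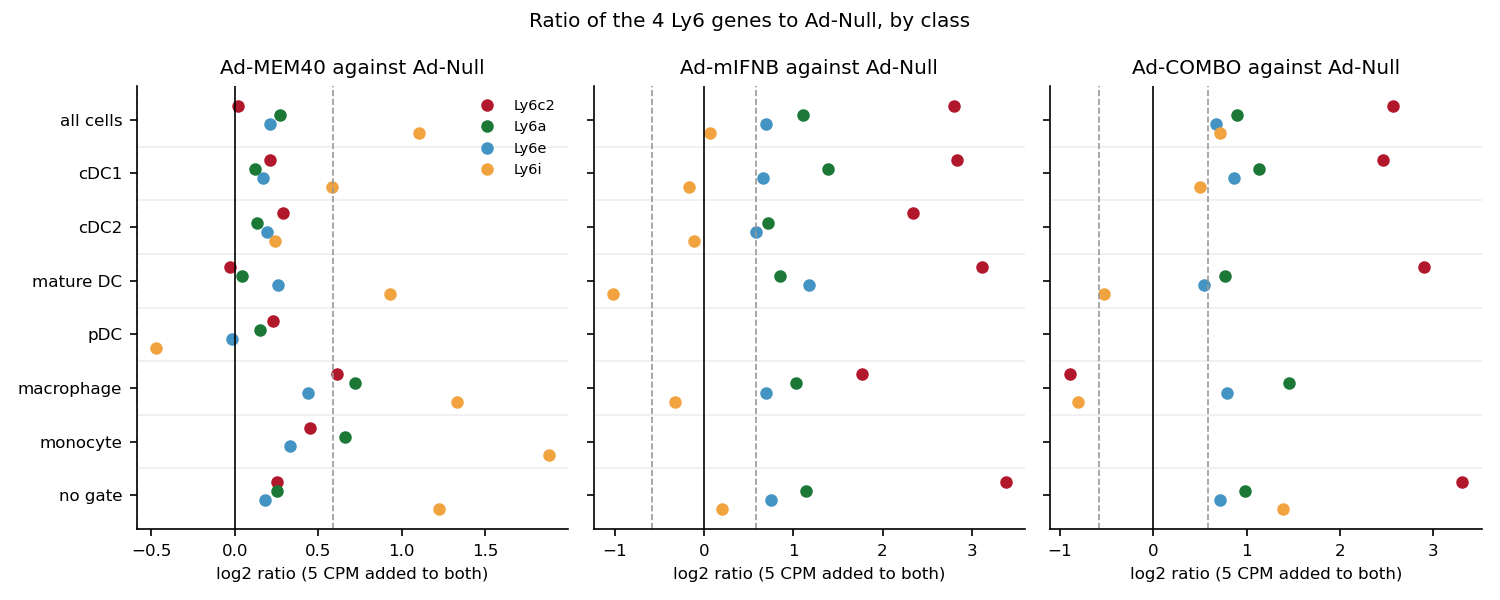
Log2 ratio to Ad-Null, with 5 CPM added to both sides, of the 4 Ly6 genes in all cells and in each class with at least 50 cells in both libraries, 1 panel per virus. Dashed lines mark 1.5-fold. Ly6i (orange) stands furthest right under Ad-MEM40 in all cells (1.10), and Ly6c2 (red) under Ad-mIFNB (2.80) and Ad-COMBO (2.57).

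The CD40 ligand virus alone came with a different member, Ly6i. Over all cells Ly6i was at 35.8 CPM in Ad-MEM40 (34.9 to 36.6) and 14.1 CPM in Ad-Null (13.5 to 14.7), 2.54-fold higher (2.42 to 2.67) and rank 16 of 16761 genes measured. Ly6c2 was at 102 CPM in Ad-MEM40 and 100.3 CPM in Ad-Null, with a ratio of 1.01 whose interval (0.990 to 1.03) held 1. Ly6a was at 810.2 CPM in Ad-MEM40 and 670.5 CPM in Ad-Null, a ratio of 1.21, and Ly6e at 1152 CPM in Ad-MEM40 and 994 CPM in Ad-Null, a ratio of 1.16. Of the 4 members, 1 was called higher in Ad-MEM40, where 0.776% of all genes were.

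Ly6i was called higher in Ad-MEM40 in 3 of the 6 gated myeloid classes, monocytes, macrophages and mature DC, and in cells with no gate, but not in cDC1, cDC2 or pDC. It was also called higher in cells of several gates (26.7 CPM in Ad-MEM40 and 12.3 CPM in Ad-Null, log2 0.87). In melanoma-gated cells Ly6i passed the threshold too (log2 0.66), over 36 UMIs in Ad-MEM40 and 1 UMI in Ad-Null, but not without called doublets (0.50). In monocyte-gated cells it was at 90.4 CPM in Ad-MEM40 and 20.9 CPM in Ad-Null, a ratio of 4.33 (3.43 to 5.53) and rank 8 of 10167 genes. In macrophages it was at 23.7 CPM in Ad-MEM40 and 6.43 CPM in Ad-Null, a ratio of 3.70 (3.05 to 4.52) and rank 5 of 12991 genes. In mature DC it was at 65.2 CPM in Ad-MEM40 and 31.9 CPM in Ad-Null (ratio 2.04, 1.67 to 2.50), and with no gate at 68.0 and 26.2 CPM, in that order of libraries (log2 1.22). Among the 6 gated myeloid classes Ly6i ranked highest in macrophages and monocytes, but in cells with no gate it also ranked 16 of 13416 genes. In cDC1 it was at 7.15 CPM in Ad-MEM40 and 3.15 CPM in Ad-Null, a ratio of 2.27 (1.69 to 3.06), as large as that of mature DC. With 5 CPM added to both sides the log2 difference was 0.58, which missed the threshold at these low levels. Ly6i ranked 73 of 11934 genes there and 68 of 10172 in mature DC. In cDC2 it was at 20.6 CPM in Ad-MEM40 and 16.7 CPM in Ad-Null (0.24). In pDC it was at 6.16 CPM in Ad-MEM40 and 10.5 CPM in Ad-Null, over 8 and 26 UMIs, and the interval of the ratio (0.230 to 1.33) held 1.

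In macrophages, monocytes and melanoma-gated cells of Ad-MEM40 other members moved with Ly6i. Ly6a was at 867 CPM in macrophages of Ad-MEM40 and 525 CPM in those of Ad-Null (log2 0.72), and in monocytes at 921 CPM in Ad-MEM40 and 581 CPM in Ad-Null (0.66). In melanoma-gated cells Ly6a was at 61.7 CPM in Ad-MEM40 and 29.8 CPM in Ad-Null (0.94, or 0.61 without called doublets). Ly6e differed there by 0.50, under the threshold. Ly6c2 in macrophages was at 71.2 CPM in Ad-MEM40 and 45.1 CPM in Ad-Null, a log2 difference of 0.61 that passed the threshold barely. It was 0.58 with 1 more marker in the gate, 0.57 without called doublets and 0.46 with thinned cells, each under the threshold. Ly6c2 in monocytes was at 135 CPM in Ad-MEM40 and 97.6 CPM in Ad-Null (0.45), and in pDC at 2095 CPM in Ad-MEM40 and 1786 CPM in Ad-Null (0.23). Members called higher in Ad-MEM40 were 3 of 4 in macrophages (0.724% of all genes), 2 of 4 in monocytes (2.14%), 1 of 4 in mature DC (2.69%), 1 of 4 with no gate (0.865%), and 0 of 4 in each of cDC1 (0.578%), cDC2 (0.588%) and pDC (2.32%).

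With both viruses, all 4 members were called higher than in Ad-Null, where 5.98% of all genes were. Ly6c2 was at 620.0 CPM in Ad-COMBO (604 to 636) and 100.3 CPM in Ad-Null, 6.18-fold higher (6.00 to 6.36). Ly6a was at 1259.6 CPM in Ad-COMBO and 670.5 CPM in Ad-Null, 1.88-fold higher. Ly6e was at 1586 CPM in Ad-COMBO and 994 CPM in Ad-Null, 1.60-fold higher. The call of Ly6i rested on fewer molecules, 256 UMIs in Ad-COMBO. It was at 26.3 CPM in Ad-COMBO and 14.1 CPM in Ad-Null, 1.87-fold higher (1.64 to 2.13), while the mean over gated classes was lower in Ad-COMBO (log2 -0.37).

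The 4 classes that could be compared in Ad-COMBO did not act alike for Ly6c2. In cDC1 it was at 406 CPM in Ad-COMBO and 69.8 CPM in Ad-Null (log2 2.46), and with no gate at 1198 CPM in Ad-COMBO and 117 CPM in Ad-Null (3.31). In mature DC it was at 369 CPM in Ad-COMBO and 45.1 CPM in Ad-Null (2.90). Few mature DC held it. The 10% of them with most Ly6c2 held 97.6% of its 451 UMIs in Ad-COMBO and the top cell 147, and without that cell the level was 255 CPM. In mature DC of Ad-Null the top 10% held 93.8% of 195 UMIs and the top cell 60, and without it the level was 31.3 CPM. With the top cell of each library left out, the log2 difference was 2.84. The log2 difference in mature DC was 1.98 when the gate asked for 1 more marker. The summed level of the 8 pDC markers in mature DC was 134 CPM in Ad-COMBO and 162 CPM in Ad-Null, and that of the 8 monocyte markers 17.2 and 78.9 CPM, and their part in the result was not tested.

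Macrophages of Ad-COMBO stood apart, with Ly6c2 low and Ly6a high. Ly6c2 was at 22.0 CPM in macrophages of Ad-COMBO (14.6 to 31.8), against 71.2 CPM in Ad-MEM40, 166 CPM in Ad-mIFNB and 45.1 CPM in Ad-Null. The ratio to Ad-Null was 0.488 (0.322 to 0.711), and to Ad-mIFNB 0.132 (0.0871 to 0.194). It rested on 28 UMIs in 65 cells, of which 12.3% had a Ly6c2 UMI, against 27.9%, 37.0% and 22.3% in Ad-MEM40, Ad-mIFNB and Ad-Null, at medians of 16357 UMIs in Ad-COMBO and 10724, 19165.5 and 15476.5 in the others in that order. In those 65 cells Ly6a was at 1439 CPM, against 525 CPM in Ad-Null (log2 1.45), and Ly6e at 1750.0 CPM, against 1007 CPM in Ad-Null (0.79). All 26 measured type I interferon genes were called higher in macrophages of Ad-COMBO as well, with a median log2 difference of 1.51. Ly6i held 2 UMIs there, 1.57 CPM, against 6.43 CPM in Ad-Null, a ratio of 0.245 (0.0293 to 0.903). Summed monocyte markers were at 546 CPM in macrophages of Ad-COMBO and 424 CPM in those of Ad-Null, and Chil3 was at 0 in Ad-COMBO.

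In mature DC of Ad-COMBO Ly6a was at 807 CPM, against 473 CPM in Ad-Null (log2 0.77), a call that ended with 1 more marker (0.19) and with thinned cells (0.58). Ly6e was at 684 CPM there, against 468 CPM in Ad-Null (0.54, or -0.24 with 1 more marker). In cDC1 of Ad-COMBO Ly6a was at 692 CPM, against 313 CPM in Ad-Null (1.13), and Ly6e at 1608 CPM, against 882 CPM (0.86). Ly6i was called higher only with no gate, at 77.0 CPM in Ad-COMBO and 26.2 CPM in Ad-Null (1.39), among the 4 classes of Ad-COMBO compared. There the top cell held 34 of 176 UMIs, and the level without it was 62.3 CPM. In Ad-COMBO 3 of 4 members were higher in cDC1 (7.17% of all genes), 2 of 4 in mature DC (11.9%), 2 of 4 in macrophages (7.14%) with 2 of 4 lower (5.08%), and 4 of 4 with no gate (9.43%), where Ly6e (0.71) missed the threshold with thinned cells at 0.56.

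In the mixture, Ly6c2 lay near its level in Ad-mIFNB, and Ly6i lay between its levels under the single viruses. Against Ad-mIFNB, Ly6c2 differed in Ad-COMBO by a ratio of 0.848 (0.824 to 0.873), Ly6a by 0.869 and Ly6e by 0.990, none past 1.5-fold. Ly6i was 1.74-fold higher (1.49 to 2.04), the 1 member called of 4, where 2.66% of all genes were, and the call was lost without the cell with most Ly6i (log2 0.53) and without pDC-gated cells (0.55). Against Ad-MEM40, Ly6c2 was 6.11-fold higher in Ad-COMBO (5.93 to 6.29) and Ly6a 1.55-fold (1.53 to 1.58), 2 of 4 members, where 5.45% of all genes were higher, and the call of Ly6a was lost with thinned cells (log2 0.52). Ly6e was 1.38-fold and Ly6i 0.734-fold (0.646 to 0.832) of Ad-MEM40. The comparisons of the 3 viruses with Ad-Null share that library, so their ratios are not independent of one another.

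Ly6c2 differed both in how many cells held it and in how much each held. With every cell thinned to 2000 UMIs, a Ly6c2 UMI was found in 13.8% of cells of Ad-MEM40, 40.2% of Ad-mIFNB, 27.0% of Ad-COMBO and 12.7% of Ad-Null (unthinned 31.6%, 57.9%, 39.9% and 34.2%). Thinning left out 1200, 126 and 59 shallower cells of Ad-MEM40, Ad-mIFNB and Ad-COMBO and 359 of Ad-Null. Melanoma-gated cells, far deeper at medians of 49002.5 UMIs in Ad-MEM40 and 81415 in Ad-Null, had a Ly6c2 UMI in 1.33% of thinned cells in Ad-MEM40 and in 0 of 68 in Ad-Null (exact upper bound 5.28%), and the shares of all cells in those libraries lay above that. In Ad-mIFNB, 0 of 7 melanoma-gated cells had one (exact upper bound 41.0%), and in Ad-COMBO 0 of 2, too few cells to give a background for the shares of these libraries. Cells with 5 or more Ly6c2 UMIs made up 0.920% of Ad-MEM40, 14.5% of Ad-mIFNB, 10.3% of Ad-COMBO and 1.28% of Ad-Null. In cells with no gate they were 0.624%, 20.4% and 12.6% in Ad-MEM40, Ad-mIFNB and Ad-COMBO and 0.517% in Ad-Null, and in pDC 39.2% of 204 thinned cells in Ad-MEM40, 74.5% of 47 in Ad-mIFNB, 81.8% of 22 in Ad-COMBO and 30.6% of 248 in Ad-Null.

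The other members differed less in the share of cells. A Ly6a UMI was found in 60.4% of thinned cells of Ad-MEM40, 73.9% of Ad-mIFNB, 62.4% of Ad-COMBO and 54.7% of Ad-Null. A Ly6e UMI was found in 83.0%, 87.4% and 80.7% of them in Ad-MEM40, Ad-mIFNB and Ad-COMBO and in 77.9% in Ad-Null. A Ly6i UMI was found in 6.45%, 3.15% and 3.92% in the same libraries and in 3.12% in Ad-Null. Ly6e was thus found in most cells of each library and Ly6i in few. In melanoma-gated cells the thinned shares were 9.33% for Ly6a, 17.3% for Ly6e and 1.78% for Ly6i in Ad-MEM40, and 4.41%, 10.3% and 0 of 68 cells in Ad-Null.

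**Figure D3:**
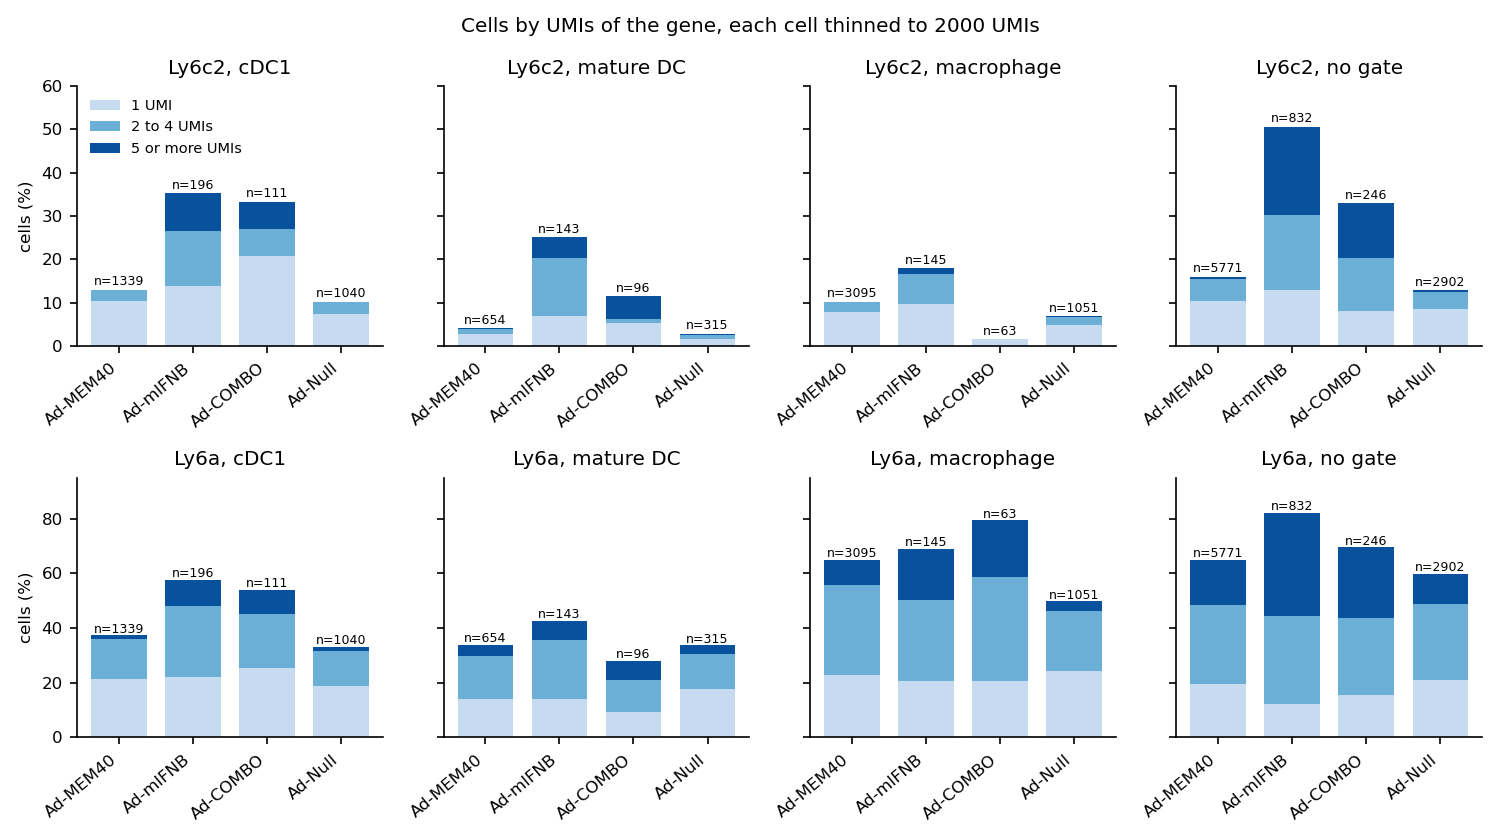
Percent of cells with 1, 2 to 4, or 5 or more UMIs of Ly6c2 (top) and Ly6a (bottom) after each cell was thinned to 2000 UMIs, by class and library, with the number of thinned cells above each bar. Ungated cells with 5 or more Ly6c2 UMIs make up 20.4% in Ad-mIFNB and 12.6% in Ad-COMBO, against 0.517% in Ad-Null, and the macrophage bar of Ad-COMBO is 1 of 63 cells.

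Cells that held Ly6c2 also tended to hold Ly6a, and in ungated cells, cDC1 and cDC2 their UMIs correlated more under interferon beta. Across thinned ungated cells, which share a library and a depth, the Spearman correlation of Ly6c2 with Ly6a UMIs was 0.23 in Ad-MEM40 (5771 cells), 0.52 in Ad-mIFNB (832 cells), 0.57 in Ad-COMBO (246 cells) and 0.19 in Ad-Null (2902 cells). In cDC1 it was 0.20, 0.41 and 0.33 in Ad-MEM40, Ad-mIFNB and Ad-COMBO and 0.19 in Ad-Null. In cDC2 it was 0.14 in Ad-MEM40, 0.39 in Ad-mIFNB and 0.16 in Ad-Null. In mature DC it was 0.60 in Ad-mIFNB and 0.56 in Ad-COMBO. In macrophages it differed little, at 0.16 in Ad-MEM40, 0.22 in Ad-mIFNB and 0.14 in Ad-Null. Both genes were found in 47.6% of ungated cells in Ad-mIFNB, where independent detection would give 41.5%. The excess was larger in proportion in the other libraries. It was 13.3% against 10.4% in Ad-MEM40, 30.1% against 22.9% in Ad-COMBO and 10.2% against 7.72% in Ad-Null. In pDC, where most cells held both genes, joint detection was 80.9% against 80.4% in Ad-MEM40 and 79.4% against 78.0% in Ad-Null. More UMIs per gene also make a correlation easier to see, and that part was not tested.

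The classes that held the Ly6c2 UMIs differed between the libraries. The pDC gate held 14.7% of Ly6c2 UMIs in Ad-MEM40, 11.4% in Ad-mIFNB, 21.1% in Ad-COMBO and 27.4% in Ad-Null, from 1.33%, 2.71%, 3.28% and 2.85% of cells. Cells with no gate held 36.0%, 59.3% and 45.3% of Ly6c2 UMIs in Ad-MEM40, Ad-mIFNB and Ad-COMBO and 23.6% in Ad-Null. For Ly6i the ungated share was 49.8%, 70.0% and 68.8% in Ad-MEM40, Ad-mIFNB and Ad-COMBO and 37.9% in Ad-Null.

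**Figure D4:**
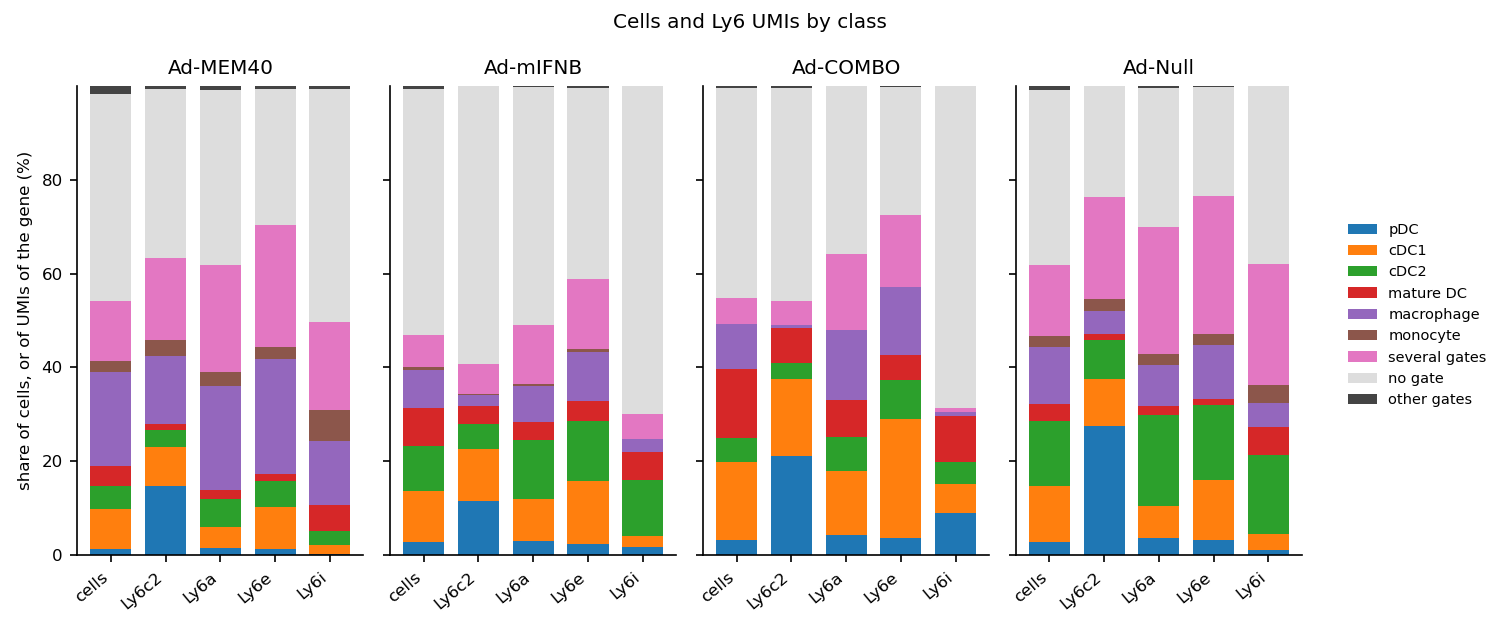
Share of cells, and share of the UMIs of each Ly6 gene, by class (colours) in each library, in percent. The pDC gate (bottom) takes 11.4% to 27.4% of Ly6c2 UMIs from 1.33% to 3.28% of cells, and ungated cells (light grey) take the largest part of Ly6c2 in Ad-MEM40, Ad-mIFNB and Ad-COMBO.

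Class levels of Ly6c2 and class shares were exchanged in turn between each library and Ad-Null. A class share in this exchange is the part of all UMIs that the class held, not its part of the cells. Deep cells, such as those of several gates, therefore weigh more than their number, and shallow ungated cells less. Over the 9 classes with at least 50 cells in both Ad-MEM40 and Ad-Null, cells of several gates and of none included, the levels of Ad-MEM40 weighted by the class shares of Ad-Null gave 117 CPM, and the levels of Ad-Null weighted by the shares of Ad-MEM40 gave 85.6 CPM, beside 101 CPM for Ad-MEM40 itself and 100.4 CPM for Ad-Null itself. Levels and shares thus lay on opposite sides of Ad-Null there, behind a ratio near 1. Over the 6 classes with at least 50 cells in both Ad-mIFNB and Ad-Null, which leave out pDC, monocytes and melanoma cells, the levels of Ad-mIFNB weighted by the class shares of Ad-Null gave 531 CPM, and the levels of Ad-Null weighted by the shares of Ad-mIFNB gave 81.7 CPM, beside 677 CPM for Ad-mIFNB itself and 76.2 CPM for Ad-Null itself. Over the 4 classes of Ad-COMBO, which leave out cDC2 and cells of several gates as well, the same exchange gave 645 CPM with the levels of Ad-COMBO and 76.1 CPM with those of Ad-Null, beside 583 CPM for Ad-COMBO itself and 82.2 CPM for Ad-Null itself. The ungated cells count as 1 class in this exchange, so a change of makeup within them is part of their level.

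Monocyte markers were not called higher in the libraries with high Ly6c2. Of 8 monocyte markers, 0 were called higher and 5 lower in Ad-mIFNB (median log2 -0.63), 0 higher and 4 lower in Ad-COMBO (-0.67), and 1 higher and 1 lower in Ad-MEM40 (0.03), all against Ad-Null. The monocyte gate took 2.42% of cells in Ad-MEM40, 0.552% (10 cells) in Ad-mIFNB, none of 671 in Ad-COMBO and 2.37% in Ad-Null. Monocyte-gated cells held Ly6c2 at 97.6 CPM in Ad-Null, beside 100.3 CPM over all its cells, and at 135 beside 102 CPM in Ad-MEM40. The gate thus did not single out cells high in Ly6c2, and the fall of its markers does not show how monocytes high in Ly6c2 changed. In cells with no gate the summed monocyte markers were at 508 CPM in Ad-MEM40, 324 in Ad-mIFNB, 200 in Ad-COMBO and 483 in Ad-Null, with Chil3 at 0 in Ad-mIFNB and Ad-COMBO. Among ungated cells Ly6c2 was also read by the number of monocyte markers held. Ungated cells in which thinning to 2000 UMIs left no monocyte marker, which does not show that they lack one, held Ly6c2 at 116 CPM in Ad-MEM40 (2819 cells), 1121 in Ad-mIFNB (568 cells), 668 in Ad-COMBO (187 cells) and 95.5 in Ad-Null (1481 cells). Those with 1 marker held 149.8 CPM in Ad-MEM40, 1496 in Ad-mIFNB, 1227 in Ad-COMBO (44 cells) and 101 in Ad-Null. Those with 2 or more held 163 CPM in Ad-MEM40, 1403 in Ad-mIFNB (36 cells), 1933 in Ad-COMBO (15 cells) and 167 in Ad-Null, and the part of monocytes in the Ly6c2 difference was not tested. Summed pDC markers in ungated cells were at 105, 170 and 171 CPM in Ad-MEM40, Ad-mIFNB and Ad-COMBO and 125 CPM in Ad-Null, against 7259 to 9673 CPM in the pDC gate, and their part in the Ly6c2 difference was not tested.

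Known interferon genes gave the setting for these values. Of 28 genes listed for the type I interferon response, 26 were found, and all 26 were called higher in Ad-mIFNB (median log2 1.61, with Ifit1 highest at 3.12) and in Ad-COMBO (1.64, with Rsad2, an antiviral enzyme, highest at 3.28), against 0 in Ad-MEM40 (0.11), all relative to Ad-Null. The log2 difference of Ly6c2 (2.80 in Ad-mIFNB) lay above the median of that list, and those of Ly6a (1.11) and Ly6e (0.69) below it. Genes near the list median were Oasl2 (1.57) and Oas3 (1.65), which sense viral RNA, in Ad-mIFNB, Ifih1 (1.67) and Xaf1 (1.62) in Ad-COMBO, and Ifit1 (0.09) and Isg15 (0.13) in Ad-MEM40. The median of all genes lay between -0.02 and 0.02 in these comparisons.

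Of 18 genes associated with interferon gamma, 4 were called higher in Ad-MEM40 (median log2 0.40), 9 higher and 1 lower in Ad-mIFNB (0.56), and 14 higher and 1 lower in Ad-COMBO (1.21), again against Ad-Null. The highest were Nos2, the inducible nitric oxide synthase, in Ad-MEM40 (1.10), Irgm1 in Ad-mIFNB (1.52) and Tgtp1, an immunity-related GTPase, in Ad-COMBO (1.70). The log2 difference of Ly6i in Ad-MEM40 was the same size as that of Nos2. Nearest the median were Gbp5 (0.41) and Irf1 (0.39) in Ad-MEM40, Iigp1 (0.52) and Gbp5 (0.59) in Ad-mIFNB and Iigp1 (1.21) and Nos2 (1.20) in Ad-COMBO. Against Ad-mIFNB, 7 of the 18 and 1 of the 26 type I genes were called higher in Ad-COMBO (medians 0.51 and 0.09, with Nos2 at 1.41 and Oasl1 at 0.62 highest). Against Ad-MEM40, 9 of the 18 were called higher and 1 lower in Ad-COMBO, and 25 of the 26 higher (medians 0.67 and 1.51).

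The rest of the Ly6 family gave few calls, and most of it was too low for one. Of 29 other family genes found, 13 held at least 20 UMIs over the libraries. Of those measured in each comparison 0 of 13 were called higher in Ad-MEM40 (0.776% of all genes), 0 of 11 in Ad-mIFNB (2.65%) and 1 of 11 in Ad-COMBO (5.98%), with none lower. The 1 gene was Ly6d, a leading gene of the pDC gate, at 23.4 CPM in Ad-MEM40, 37.9 in Ad-mIFNB, 74.6 in Ad-COMBO and 35.7 in Ad-Null (log2 0.97 for Ad-COMBO). Plaur, the urokinase receptor, was at 63.2, 127 and 102 CPM in Ad-MEM40, Ad-mIFNB and Ad-COMBO and 85.5 CPM in Ad-Null. Ly6c1, Ly6k, Ly6m, Ly6g5b, Ly6g5c, Ly6g6d, Ly6g6e, Ly6g6f, Lynx1, Cd59a and Cd59b lay under 5 CPM in every library, where 5 CPM added to both sides leaves little room for a call. Plain ratios among them went both ways. In Ad-mIFNB against Ad-Null, Ly6m was 4.93-fold (2.23 to 10.8) and Ly6c1 0.508-fold (0.304 to 0.803).

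Over the 21 sums of a class in a library with at least 50 cells, the members were alike to different degrees. Pearson's r of log2(CPM + 5) was 0.945 between Ly6a and Ly6e, 0.733 between Ly6c2 and Ly6a and 0.718 between Ly6c2 and Ly6e, while Ly6i had 0.319 with Ly6a, 0.195 with Ly6e and 0.11 with Ly6c2. Among 5188 genes, the closest to Ly6c2 were Tifa (0.892), Fam241a (0.892) and Elf1 (0.881), and to Ly6a Ly6e, Ly86 (0.943) and Ptpn6 (0.937). The closest to Ly6e were Evi2a (0.975), Lyn (0.971) and Scimp (0.967), and to Ly6i Pde4b (0.873), Mcemp1 (0.868) and Serpinb1a (0.844). The sums share libraries and classes, and melanoma sums at the low end count among them, so these values describe the 21 sums and are no test.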

How the data were processed

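The authors deposited 4 matrices, 1 per library, that hold whole-number UMI counts per gene and barcode. Reads were processed with Cell Ranger 3.0 on mm10 and cells analysed with Seurat 4.0, per the submitters' processing notes, whereas the matrix headers name Cell Ranger 6.0.0. Kept were 15656, 1810, 671 and 8745 cells with 181854752, 28541575, 9748429 and 160828179 UMIs in Ad-MEM40, Ad-mIFNB, Ad-COMBO and Ad-Null. The labels give up to 10000 cells loaded per library, fewer than were kept in Ad-MEM40, and the reason is not given in the sources used here.

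UMIs were summed by library or class in Python 3.11.15 (numpy 2.4.6, pandas 2.3.3) and given as CPM with exact Poisson intervals at 95%. Ratios carry exact conditional binomial intervals, shares Clopper-Pearson intervals (scipy 1.17.1), and differences are log2(CPM + 5). Genes needed 20 UMIs over both libraries, and classes 50 cells in both. A level from 3 UMIs or fewer is at the detection limit. Doublets stayed in. Scrublet in scanpy 1.11.5 called 2161 cells in Ad-MEM40, 2 in Ad-mIFNB, 2 in Ad-COMBO and, by the expected share, 612 in Ad-Null, and their removal was an alternative. Coding sequences were aligned with Biopython 1.88. The calculation was tested on simulated data.

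Named genes were the 4 members, the 3 genes most like each over class sums (at least 50 CPM in 1 sum, no gate markers), other Ly6 genes with 20 UMIs, and of the interferon lists the highest and the 2 nearest the median. A gene that this rule would name is not reported here. Leading genes of gates and list markers at 0 are also named. The members and lists were chosen with earlier results of these data known, and the numbers of markers a gate asks for were set after the marker counts per cell were seen.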

Additional observations from a re-analysis of the deposited data

Results flagged for a closer look

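Ly6c2 in Ad-COMBO moved in opposite directions in a pair of classes: it was called higher in mature DC and lower in macrophages than in the same classes of Ad-Null. The log2 differences lay 3.79 apart between mature DC and macrophages against Ad-Null, and 4.43 apart against Ad-MEM40. With 1 library per treatment the gap between classes was not tested. The macrophage value rests on 28 UMIs in 65 cells and the mature DC value on 451 UMIs, 147 of them in 1 cell. Without the top cell of each library, the log2 differences from Ad-Null were 2.84 in mature DC and -1.25 in macrophages.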

How the results depend on the processing

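No paired analysis was possible because each treatment has 1 library. The count of members called higher in Ad-COMBO than in Ad-Null was 4, and 1 at a 2-fold threshold. Against Ad-mIFNB the count was 1, and 0 with the mean of the gated classes, at 2-fold, without pDC-gated cells and without the cell with most UMIs of the gene. Against Ad-MEM40 it was 2, and 1 with cells thinned to 2000 UMIs and at 2-fold. Ly6i in Ad-COMBO against Ad-Null turned from a log2 difference of 0.71 to -0.37 with the mean of the gated classes, which gives ungated cells no weight. The remaining settings, 35 of 40 planned and 13 of 15 added, left the 5 counts over all cells within 1.5-fold. Among the planned ones, dropping the minimum of 20 UMIs could not change any of the 5 counts, so its agreement was fixed beforehand. Removing called doublets took 2 cells from Ad-mIFNB and 2 from Ad-COMBO, so it tested little between those libraries. Libraries shared at most 63 barcodes, so leaving those out was a weak check as well. A fall from 3 members to 2 also passes as within 1.5-fold. That happened at 2-fold in Ad-mIFNB against Ad-Null, where Ly6e (log2 0.69) was lost. Leaving out pDC-gated cells, barcodes shared between libraries or the cell with most UMIs were 3 alternatives chosen after seeing the data. Single values moved more often. Log2 ratios over all cells moved past the half-width of their counting interval in 53 planned settings, reversed in 1 and stayed in 66. In the added settings 10 moved and 50 stayed. Class levels left their counting interval in 107 settings and stayed in 117. Shares of cells with a UMI left theirs without thinning in 16 settings. Ad-COMBO, with 671 cells, is the smallest library, and no setting here stands in for replicate tumors.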
